A study of Mus musculus with 12 samples.

Results

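The genes described here are Btf3, Btf3l4 and Naca, which encode subunits of the nascent polypeptide-associated complex. They were taken by symbol from the 24421 genes of the count tables, and all 3 passed the filter on low counts that left 12252 genes. The set was chosen by the measured difference between Glut1 transgenic and WT libraries within each population, in which Btf3 stood out among Tnnt2high cells. Levels between genotypes are therefore given as a description, without a test.

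RNA-seq was done on cardiomyocytes of mice on the CD1 background at postnatal day 1, without injury. The Glut1 transgenic hearts carried aMHC-hGLUT1tg, aMHC-Cre and a R26 YFP reporter, so that human GLUT1 was driven by the cardiomyocyte promoter of α-myosin heavy chain. The labels call the other hearts wild type (WT), and by the study's methods these also carried the Cre and the reporter. YFP-positive cells were sorted by Mitotracker signal, where the Mitotracker-high cells are the study's Tnnt2low cells and the Mitotracker-low cells its Tnnt2high cells. There were 4 Glut1 transgenic Tnnt2low, 4 Glut1 transgenic Tnnt2high, 2 WT Tnnt2low and 2 WT Tnnt2high libraries. Each of the 4 Glut1 transgenic hearts gave both populations, and both WT sample numbers begin with the same heart number, so the WT replicates may come from 1 heart and their spread may be technical.

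The libraries held 4065306 to 9815069 reads in genes. The 5 cardiomyocyte markers summed to between 90433 and 106215 CPM (read counts scaled to the library total) in every library. Tnnt2, the gene of the troponin that names the populations, averaged 13420 ± 632 CPM in Glut1 transgenic Tnnt2low cells and 17956 ± 2275 CPM in Glut1 transgenic Tnnt2high cells (SD, n = 4 each; log2 fold change -0.42, edgeR adjusted p = 0.00723), but 16236 ± 700 CPM in WT Tnnt2low cells and 16728 ± 670 CPM in WT Tnnt2high cells (SD, n = 2 each; edgeR adjusted p = 1). The marker thus told the populations apart in Glut1 transgenic hearts, and no difference in it was detected between the WT populations. Mouse Slc2a1, the endogenous Glut1 gene, averaged 73.1 ± 20.1 CPM in Glut1 transgenic Tnnt2low cells against 21.8 ± 8.37 CPM in WT Tnnt2low cells, and 63.4 ± 25.5 CPM in Glut1 transgenic Tnnt2high cells against 21.1 ± 11.03 CPM in WT Tnnt2high cells. It was above both WT libraries in all Glut1 transgenic libraries of each population, but the edgeR adjusted p was 1 in Tnnt2low and 0.899 in Tnnt2high cells. How far reads of the human transgene were counted for Slc2a1 was not tested. Ddx3y, a Y-linked gene, outnumbered Xist in both populations of Glut1 transgenic replicates 2 and 4, while Xist prevailed in the other 8 libraries, all WT libraries among them.

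The nascent polypeptide-associated complex (NAC) is a pair of an α subunit, encoded by Naca, and a β subunit, encoded by Btf3. It sits at the exit of the ribosomal tunnel, touches chains as they emerge, and keeps them from reaching the wrong membrane. Btf3 was first described as a basic transcription factor, and Btf3l4 encodes a close relative of the β subunit. In heart and skeletal muscle, Naca also gives a long form, skNAC, in which a large exon adds a stretch that binds the methyltransferase Smyd1.

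The 3 genes lie on separate chromosomes of mm10. Btf3 spans chr13:98309896-98317006 on the minus strand, Btf3l4 spans chr4:108814295-108833614 on the minus strand and Naca spans chr10:128035575-128048637 on the plus strand (GENCODE vM21). Reads were 50 bases long before trimming of low-quality ends. Each 50-base window of the annotated transcripts was therefore looked for, on either strand, in the transcripts of genes that do not overlap the gene itself. Shorter windows, as for trimmed reads, were not examined. Of the Btf3 windows, 18.3% were also found in such a gene, of the Btf3l4 windows 39.5% and of the Naca windows 7.98%, where the median of the tested genes was 0%. Of 12189 tested genes with annotation, 3.58% had at least as large a share as Btf3, 1.25% as Btf3l4 and 7.06% as Naca.

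The 317 shared Btf3 windows lay in 8 pseudogenes, of which the processed pseudogene Gm3531 on chromosome 1 held 285. A further 333 windows lie where Gm9828, a noncoding gene on the opposite strand, overlaps the start of Btf3, and a read there has 1 place in the genome. All shared Btf3l4 windows were those of Gm20075 on chromosome 13. The Naca windows lay in the processed pseudogenes Gm6863 and Gm12482. All 543 were windows of the short form, and 495 of them were also in the long form. Thus 65.0% of the windows of Naca-201 (885 bases) were shared, against 7.39% of those of the long Naca-202 (6745 bases). None of the 5968 windows found only in the long form was shared. None of these partner genes is a row of the count tables. Whether the counting used strand is not given in the sources used here, so reads of Gm9828 from the overlap cannot be told apart from those of Btf3. A read from a window shared with a gene elsewhere has more than 1 place to align, and the reads with several alignments, 28.2% to 40.9% of all records per library, were not counted for any gene. How many reads each member lost in this way was not measured, and the share of windows open to it was larger in Btf3l4 than in Btf3.

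**Figure D1:**
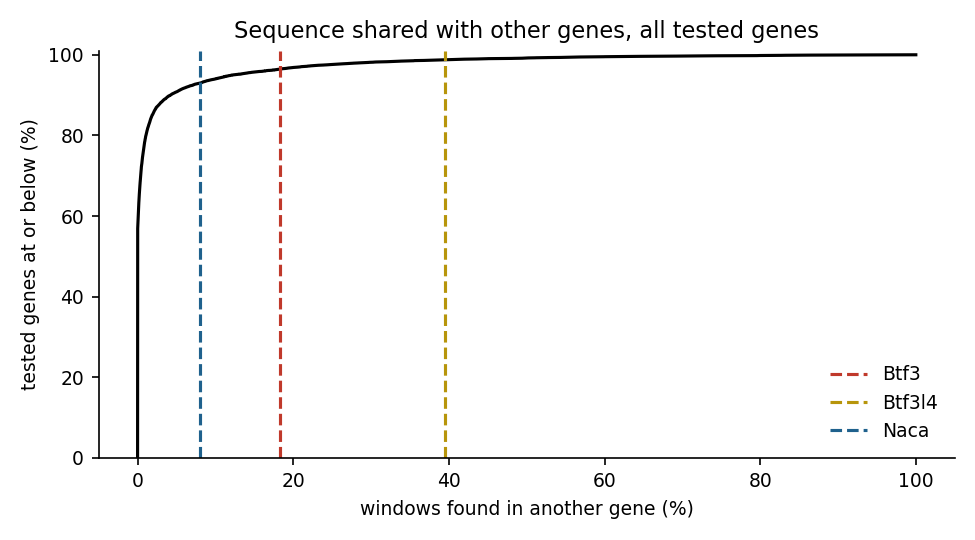
Share of a gene's 50-base windows found in another gene that does not overlap it (x axis, percent) against the percent of 12189 tested genes at or below that share (y axis). The dashed lines mark Naca at 7.98%, Btf3 at 18.3% and Btf3l4 at 39.5%, and all 3 lines lie near the upper end of the distribution.

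Coding windows of the members are shown because shared sequence bears on which reads could be counted. The first is a Btf3 window that Gm3531 also holds, at chr13:98313703-98313752, and the second its closest counterpart in Btf3l4, at chr4:108826164-108826213, with the 10 bases that differ from Btf3 in capitals. Both are read on the minus strand.
Btf3: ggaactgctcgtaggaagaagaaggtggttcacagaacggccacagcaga
Btf3l4: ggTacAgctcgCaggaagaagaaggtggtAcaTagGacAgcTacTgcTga
Although 71.3% of the 470 coding bases aligned between them were identical, Btf3 and Btf3l4 had 0 windows of 50 bases in common. An error-free read of the full 50 bases of one therefore does not match the other, and shorter, trimmed reads were not examined. The next pair comes from Naca on the plus strand. The first window, at chr10:128036494-128036543, was taken from the short form and is also held by Gm12482. Of the 836 windows of the short form 728 are also in the long form, and whether this one is among them was not tested. The second window, at chr10:128042104-128042153, is found only in the long form and in no other gene.
Naca, short form: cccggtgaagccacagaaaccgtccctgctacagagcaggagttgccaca
Naca, long form only: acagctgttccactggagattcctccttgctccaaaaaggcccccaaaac
The count tables hold 1 value per gene, so the short and long forms of Naca cannot be told apart in the levels that follow.

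Naca had the highest level of the 3 genes per transcript length and Btf3l4 the lowest. With the long form as the length, Naca stood at 184 ± 9.89 CPM per kilobase in Glut1 transgenic Tnnt2low cells, 130 ± 14.9 in Glut1 transgenic Tnnt2high cells, 193 ± 23.9 in WT Tnnt2low cells and 158 ± 6.88 in WT Tnnt2high cells (SD, n = 4, 4, 2 and 2). With the length of the short form these means were 1406, 993, 1469 and 1206 CPM per kilobase. Btf3 had 36.3 ± 15.3, 91.7 ± 12.9, 26.1 ± 1.14 and 18.4 ± 4.36 CPM per kilobase in the same order of groups, over its longest transcript of 1091 bases. Btf3l4 had 3.09 ± 1.28, 3.34 ± 0.362, 3.11 ± 0.446 and 9.33 ± 7.60 CPM per kilobase over 3141 bases. On this scale the ranges of the 3 genes did not overlap in any group. Btf3 and Btf3l4 came nearest in WT Tnnt2high cells, at 15.3 and 14.7 CPM per kilobase. Before division by length, WT Tnnt2high replicate 2 had 16.7 CPM of Btf3 and 46.2 CPM of Btf3l4. The lengths include windows shared with genes elsewhere, 30.4% in this Btf3 transcript and 58.6% in this Btf3l4 transcript. No correction was made for them, so the order of Btf3 and Btf3l4 is not secure.

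Btf3, the β subunit, had 61.2, 40.5, 20.7 and 36.1 CPM in Glut1 transgenic Tnnt2low replicates 1 to 4, against 113.6, 97.5, 81.6 and 107.7 CPM in Glut1 transgenic Tnnt2high replicates 1 to 4. All 4 Tnnt2low libraries were below all 4 Tnnt2high libraries, and within each heart the Tnnt2low level was 0.539, 0.416, 0.254 and 0.335 of the Tnnt2high level. Btf3 was lower in Tnnt2low cells, at a log2 fold change of -1.33 (edgeR adjusted p = 0.00375, standard error 0.25, 95% interval -1.87 to -0.80). This p is a description only, because the same Tnnt2high libraries entered the choice of the members. These values rest on 163 to 640 Btf3 reads per Tnnt2low library and 329 to 563 per Tnnt2high library.

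The share of all tested genes called lower in this comparison was 8.33%, and 8.42% were called higher (1020 and 1032 of 12252 genes). The Glut1 transgenic Tnnt2high libraries also entered the genotype comparison that picked the members, so the test of Btf3 is not independent of that choice. With an offset for transcript length and GC content in each library, the log2 fold change of Btf3 was -0.73 (edgeR adjusted p = 0.114), and with this offset and the heart as a block -0.82 (edgeR adjusted p = 0.0329). The same offset left 258 genes called in this comparison, 118 higher and 140 lower. Without replicate 1 or 2 of either population 1237 to 1361 genes were called. With the hearts in which Xist prevailed alone, chosen after seeing the data, Btf3 had -1.25 (edgeR adjusted p = 0.145) with 2 libraries against 2.

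In WT hearts Btf3 had 27.5 and 29.3 CPM in Tnnt2low cells, against 23.4 and 16.7 CPM in Tnnt2high cells. Both Tnnt2low libraries were above both Tnnt2high libraries, and the log2 fold change was 0.51 (standard error 0.36, 95% interval -0.26 to 1.28, edgeR adjusted p = 1). In this comparison edgeR called 0% of the 12252 genes (0 genes), against 3 by DESeq2 and 381 at p under 0.05 before adjustment. The Btf3 estimates thus pointed in opposite directions in the 2 genotypes, although the WT interval spans no change. Btf3 was lower in Tnnt2low cells in 4 of 4 Glut1 transgenic hearts and higher in 2 of 2 WT pairs. The difference between the genotypes was not tested because it contains the genotype comparison.

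**Figure D2:**
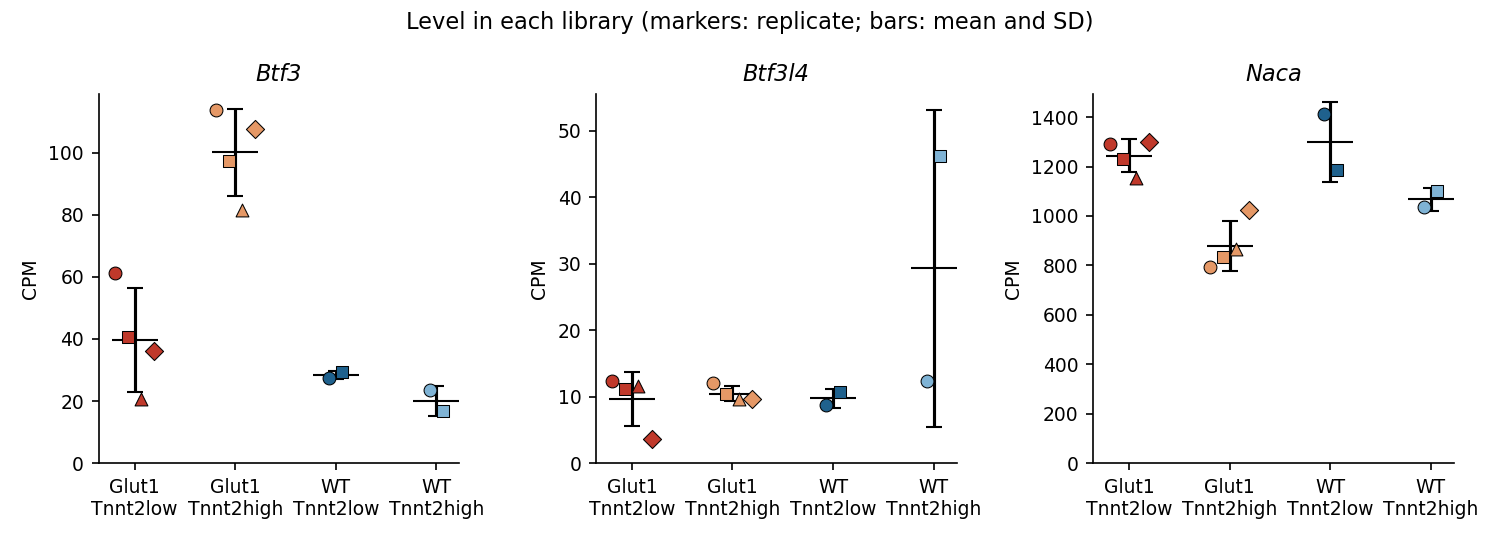
Level of each gene (y axis, CPM) in every library of the 4 groups (x axis), with the marker shape giving the replicate and the bars the mean and SD (n = 4 for Glut1 transgenic, n = 2 for WT). The Glut1 transgenic Tnnt2high libraries hold the 4 highest Btf3 values (81.6 to 113.6 CPM), and WT Tnnt2high replicate 2 the highest Btf3l4 value (46.2 CPM).

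Between genotypes, Btf3 was the member with the widest gap, and this gap lay in Tnnt2high cells. The 4 Glut1 transgenic Tnnt2high libraries held 81.6 to 113.6 CPM, against 23.4 and 16.7 CPM in WT Tnnt2high cells, a 5.01-fold difference (log2 fold change 2.33, standard error 0.34). In Tnnt2low cells the Glut1 transgenic libraries held 20.7 to 61.2 CPM and the WT libraries 27.5 and 29.3 CPM, with overlap (log2 fold change 0.48, standard error 0.31). The share of genes called in the genotype comparison was 0% in Tnnt2high cells and 0.00816% in Tnnt2low cells (0 and 1 of 12252 genes by edgeR, 5 and 6 by DESeq2, and 650 and 256 at p under 0.05 before adjustment). These contrasts picked the members, and nothing is read from the counts. Restricted to the Glut1 transgenic hearts in which Xist prevailed, as in both WT replicates, the log2 fold change of Btf3 was 2.29 in Tnnt2high cells and 0.53 in Tnnt2low cells.

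Ordered by Btf3 level, the groups ran from Glut1 transgenic Tnnt2high over Glut1 transgenic Tnnt2low and WT Tnnt2low to WT Tnnt2high. The first (100.1 ± 14.0 CPM) stood clear of the second (39.6 ± 16.7 CPM) by more than the spread of either. The second overlapped WT Tnnt2low cells (28.4 ± 1.25 CPM), and these lay just above WT Tnnt2high cells (20.1 ± 4.76 CPM) without passing the test given above.

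Naca, the α subunit, went the other way from Btf3 between the populations of Glut1 transgenic hearts. It had 1290, 1231, 1155 and 1300 CPM in Glut1 transgenic Tnnt2low replicates 1 to 4, against 793, 835, 865 and 1022 CPM in Glut1 transgenic Tnnt2high replicates 1 to 4. Every Tnnt2low library was above every Tnnt2high library, by 1.63, 1.48, 1.33 and 1.27 times within the hearts. Naca rose in Tnnt2low cells at a log2 fold change of 0.50 (edgeR adjusted p = 0.00615, standard error 0.10, 95% interval 0.28 to 0.72), where the same caution on the shared Tnnt2high libraries holds.

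The Naca result depended on the transcript assumed. With the offset for length and GC content the log2 fold change was 0.19 when the length was that of the long form (edgeR adjusted p = 0.255), and 1.18 when it was that of the short form (edgeR adjusted p = 0.0114), the second chosen after seeing the data. With the Xist hearts alone it was 0.56 (edgeR adjusted p = 0.124). Which form gave the reads was not tested.

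In WT hearts Naca had 1414 and 1186 CPM in Tnnt2low cells, against 1035 and 1100 CPM in Tnnt2high cells. Both Tnnt2low libraries were higher, at a log2 fold change of 0.28 (edgeR adjusted p = 1, standard error 0.15, 95% interval -0.03 to 0.60). Between genotypes, the Glut1 transgenic Tnnt2low libraries overlapped the WT Tnnt2low libraries (log2 fold change -0.06, standard error 0.13), and the Glut1 transgenic Tnnt2high libraries were all below the WT Tnnt2high libraries, the nearest at 1022 against 1035 CPM (log2 fold change -0.28, standard error 0.13). Ordered by level, the Naca groups ran from WT Tnnt2low over Glut1 transgenic Tnnt2low and WT Tnnt2high to Glut1 transgenic Tnnt2high, and of the neighbours in this order only the first pair overlapped.

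Btf3l4, the relative of the β subunit, did not pass the test in either genotype. It had 12.4, 11.1, 11.5 and 3.71 CPM in Glut1 transgenic Tnnt2low replicates 1 to 4, against 12.1, 10.4, 9.67 and 9.73 CPM in Glut1 transgenic Tnnt2high replicates 1 to 4. The groups overlapped, and the log2 fold change was -0.11 (standard error 0.40, 95% interval -0.96 to 0.74, edgeR adjusted p = 0.887), or 0.16 without Glut1 transgenic Tnnt2low replicate 4. That library held 29 Btf3l4 reads, and the other Glut1 transgenic libraries 38 to 130.

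In WT hearts Btf3l4 had 8.79 and 10.8 CPM in Tnnt2low cells, against 12.4 and 46.2 CPM in Tnnt2high cells (61 and 343 reads). The log2 fold change was -1.59 (standard error 0.56, 95% interval -2.78 to -0.40, edgeR adjusted p = 1), and -0.34 without WT Tnnt2high replicate 2. Between genotypes it was -0.01 (standard error 0.48) in Tnnt2low cells and -1.49 (standard error 0.46) in Tnnt2high cells, where it was -0.24 without that same WT library. The levels of Btf3l4 in the other 3 groups, with means of 9.70, 10.5 and 9.78 CPM in Glut1 transgenic Tnnt2low, Glut1 transgenic Tnnt2high and WT Tnnt2low cells, did not differ beyond their spread.

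**Figure D3:**
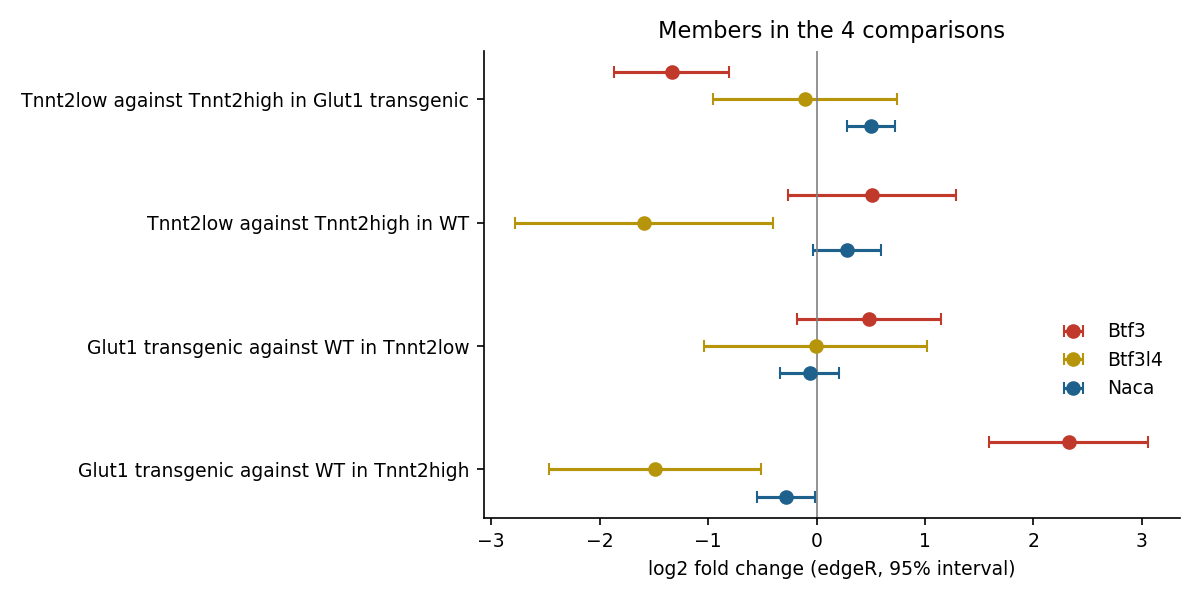
Log2 fold changes of the 3 genes (x axis) in the 4 comparisons (y axis), with points for the edgeR estimate and bars for its 95% interval. Btf3 lies at -1.33 between the populations of Glut1 transgenic hearts and at 0.51 in WT hearts, and Naca lies at 0.50 and 0.28. The genotype comparisons picked the members and are a description.

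Btf3 was also followed as Btf3 reads per 100 Naca reads, a value that does not depend on the scaling of libraries. Naca reads pool the short and long forms, so this RNA ratio does not measure the balance of the α and β subunits. No correction for transcript length or GC content was made to it. The ratio was 4.74, 3.29, 1.79 and 2.77 in Glut1 transgenic Tnnt2low replicates 1 to 4, against 14.3, 11.7, 9.43 and 10.5 in Glut1 transgenic Tnnt2high replicates 1 to 4. The Tnnt2low values were lower in 4 of 4 hearts and did not overlap the Tnnt2high values, with a mean log2 difference of -1.94 (two-sided exact permutation p = 0.0286, the smallest that 4 against 4 libraries can give, and 0.0571 after adjustment over the 2 ratios). The difference therefore did not pass after the adjustment, in a design that cannot pass it unless both ratios reach their smallest p. The ratio uses the same Tnnt2high libraries that entered the choice of the members, so this test too is not independent of it. WT libraries had 1.95 and 2.47 Btf3 reads per 100 Naca reads in Tnnt2low cells and 2.26 and 1.52 in Tnnt2high cells, with overlap and all under the Glut1 transgenic Tnnt2high values.

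The Btf3l4 reads per 100 Naca reads were 0.963, 0.903, 1.00 and 0.285 in Glut1 transgenic Tnnt2low replicates 1 to 4, against 1.53, 1.25, 1.12 and 0.951 in Glut1 transgenic Tnnt2high replicates 1 to 4. They were lower in Tnnt2low cells in 4 of 4 hearts, but the groups overlapped (mean log2 difference -0.76, two-sided exact permutation p = 0.0857 before and after adjustment over the 2 ratios), and without Glut1 transgenic Tnnt2low replicate 4 the difference was -0.32. The CPM of Btf3l4 itself was lower in Tnnt2low cells in 1 of 4 hearts, and that of Naca, the denominator, in 0 of 4. In WT libraries the Btf3l4 reads per 100 Naca reads were 0.621 and 0.908 in Tnnt2low cells and 1.20 and 4.20 in Tnnt2high cells.

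**Figure D4:**
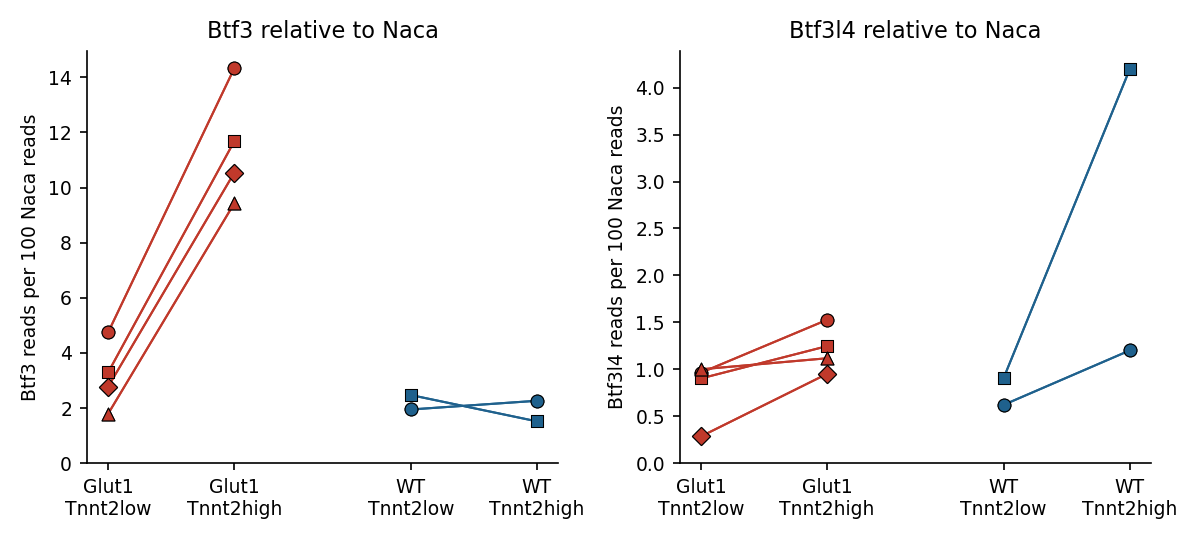
Btf3 reads (left) and Btf3l4 reads (right) per 100 Naca reads (y axis) in the 4 groups (x axis), with lines joining the libraries of 1 heart or WT number. In Glut1 transgenic hearts Btf3 stood at 1.79 to 4.74 in Tnnt2low cells and at 9.43 to 14.3 in Tnnt2high cells, and in WT hearts the lines cross between 1.52 and 2.47.

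Library properties moved with the populations as well. Reads outside exons per read in a gene numbered 0.886 to 1.07 in Glut1 transgenic Tnnt2low and 2.26 to 2.63 in Glut1 transgenic Tnnt2high libraries, and 1.13 to 1.50 in WT Tnnt2low and 1.51 to 1.83 in WT Tnnt2high libraries. The 6 fibroblast and matrix markers summed to 45.2 to 98.4 CPM in Glut1 transgenic Tnnt2low and 147 to 888 CPM in Glut1 transgenic Tnnt2high libraries, and to 106 to 150 CPM in WT Tnnt2low and 102 to 458 CPM in WT Tnnt2high libraries. The 5 endothelial markers summed to 6.88 to 58.96, 21.4 to 196, 9.42 to 67.6 and 12.3 to 279 CPM in the same order of groups. No single one of these markers was at 0 in a whole group. The 4 smooth muscle and pericyte markers summed to 72.3 to 109 CPM over all libraries, and the 4 leukocyte and 4 erythroid markers to at most 6.46 and 18.6 CPM. Their part in the levels of Btf3, Btf3l4 and Naca was not tested. In sorted cells, fewer cells of a type and less RNA per cell cannot be told apart.

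Genes of the wider machinery that handles the nascent chain were compared between the populations of Glut1 transgenic hearts in the same fit. Of 82 tested genes in 13 lists, 22 fell in Tnnt2low cells and 1 rose, where the background is 8.33% lower and 8.42% higher, and their median log2 fold change was -0.25 against -0.01 over all tested genes. The calls changed with the processing. With the length and GC offset 3 of the 82 genes were called, Rpl35, Eef1d and Cct7, against 258 over all tested genes. Without replicate 1 or 2 of Tnnt2low cells 11 and 13 of the 82 were called, or of Tnnt2high cells 12 and 14. In WT hearts edgeR called 0 of the 82 genes and DESeq2 1, 9 were under 0.05 before adjustment, and the median was -0.21. Between genotypes neither edgeR nor DESeq2 called any in either population (0 of 82), 4 in Tnnt2low and 3 in Tnnt2high cells were under 0.05 before adjustment, and the medians were 0.00 and 0.06. All p-values in the next paragraphs are edgeR's adjusted p for Tnnt2low against Tnnt2high cells of Glut1 transgenic hearts.

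The counts of this paragraph are read against the 8.33% of all tested genes called lower. For the ribosome itself, 3 of 8 genes of proteins around the exit tunnel fell, with a median log2 fold change of -1.03. Rpl19, Rpl23a and Rpl17 lay below this median without being called, at standard errors of 0.98, 1.41 and 1.08. Of their windows 57.4%, 50.1% and 44.7% are shared with genes elsewhere. Rpl19 averaged only 1.22 CPM in Tnnt2low cells and 3.10 CPM in Tnnt2high cells. Rpl35, which neighbours the site where NAC docks, averaged 104 ± 22.7 CPM in Tnnt2low cells and 419 ± 97.6 CPM in Tnnt2high cells (log2 fold change -2.01, adjusted p = 0.000446), although 30.2% of its windows are shared with genes elsewhere. Rpl31 and Rpl22 fell by 0.73 and 0.63 on the log2 scale (adjusted p = 0.0482 and 0.0426). Rpl31 and Rpl22 were at -0.06 and -0.35 with the length and GC offset, and neither was then called. With the heart as a block Rpl31 was no longer called (adjusted p = 0.0687). The Rpl31 call was also lost without any 1 Tnnt2low library or Tnnt2high replicate 1 or 2 (-0.87 to -0.51 over all libraries left out), and the Rpl22 call without Tnnt2low replicate 1, 2 or 4, either WT Tnnt2low library or Tnnt2high replicate 1 or 2 (-0.84 to -0.42). In WT hearts this list had a median of -1.46, with 0 called by edgeR, 1 by DESeq2 and 3 under 0.05 before adjustment. Its WT log2 fold changes ran from -7.57 for Rpl23a to -0.28 for Rpl39. Of the elongation factors, which take the ribosome along the message, 5 of 7 fell (median -0.50), led by Eef1d with 129 ± 7.46 CPM in Tnnt2low cells and 233 ± 19.8 CPM in Tnnt2high cells (log2 fold change -0.85, adjusted p = 0.00198). Eif5a (-0.50, adjusted p = 0.00557) and Eef1g (-0.59, adjusted p = 0.0167) were the next, and the Eef1g call was lost without Tnnt2low replicate 1 (-0.53) or 2 (-0.55). Eif5a and Eef1g were at -0.04 and -0.28 with the length and GC offset, and neither was then called.

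The calls among the chaperones that take over from the ribosome lay mostly in 1 complex, read against the 8.33% of all tested genes called lower. Of the TRiC chaperonin, the ring that folds actin and tubulin, 7 of 8 subunits fell with a median log2 fold change of -0.47. Cct5 averaged 210 ± 16.8 CPM in Tnnt2low cells and 315 ± 22.6 CPM in Tnnt2high cells (log2 fold change -0.59, adjusted p = 0.00583), Cct7 had -0.58 (adjusted p = 0.00758) and Cct4 -0.61 (adjusted p = 0.0225). The Cct4 call was lost without Tnnt2low replicate 1 (-0.57) or Tnnt2high replicate 1 (-0.47). Cct5 and Cct4 were at -0.26 and -0.37 with the length and GC offset and not called, while Cct7 was at -0.60 and called. Of prefoldin, which hands chains to TRiC, 2 of 6 subunits fell (median -0.58), namely Pfdn5 (-0.87, adjusted p = 0.00631) and Pfdn1 (-0.61, adjusted p = 0.01). Pfdn5 and Pfdn1 were at -0.25 and -0.006 with the length and GC offset, and neither was then called. The Hsp70 system on the ribosome had 0 of 3 called (1 at an unadjusted p under 0.05, 0 by DESeq2), with log2 fold changes of -0.25 for Hspa8 and -0.13 for Dnajc2 (adjusted p = 0.142 and 0.637).

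The lists of membrane targeting, the step that NAC restrains, held 1 called gene each, read against the 8.33% of all genes called lower. Of the signal recognition particle and its receptor 1 of 7 fell, Srp14, with 82.1 ± 9.06 CPM in Tnnt2low cells and 140 ± 17.0 CPM in Tnnt2high cells (log2 fold change -0.76, adjusted p = 0.00344). Srp14 was at -0.02 with the length and GC offset and was then not called. Of the Sec61 translocon, the channel into the endoplasmic reticulum, 1 of 10 fell, the translocon-associated Ssr4 (-0.74, adjusted p = 0.0195). The Ssr4 call was lost without Tnnt2low replicate 2 (-0.62) or Tnnt2high replicate 1 (-0.67), and with the length and GC offset (-0.58). Of the genes that insert tail-anchored proteins 1 of 6 fell, the ATPase gene Asna1 (-0.47, adjusted p = 0.0274), whose log2 fold change was 0.06 with the length and GC offset. The Asna1 call was lost without Tnnt2low replicate 1, 2 or 3 or Tnnt2high replicate 2 or 3 (-0.52 to -0.41 over all libraries left out). The medians of these lists were -0.12, -0.11 and -0.28.

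Among the enzymes that trim or modify the start of the chain, the N-terminal acetyltransferases held the 1 gene that rose. Of their 11 tested genes 1 was called higher and 2 lower, where 8.42% and 8.33% of all tested genes were. Naa40, which acetylates histones H2A and H4, averaged 60.9 ± 5.71 CPM in Tnnt2low cells and 37.4 ± 3.32 CPM in Tnnt2high cells (log2 fold change 0.70, adjusted p = 0.0076). Naa38, an auxiliary subunit, and Naa10, a catalytic subunit, fell (-1.17 and -0.57, adjusted p = 0.00471 and 0.0342), and Naa10 missed the threshold with the heart as a block (adjusted p = 0.0558) and without replicate 1, 2 or 3 of either population (-0.64 to -0.51 over all libraries left out). The length and GC offset left Naa40 at 0.57, Naa38 at -0.38 and Naa10 at -0.32, none of them called. This list of 11 tested genes had a median of 0.07. Of the methionine aminopeptidases and N-myristoyltransferases 0 of 4 were called (0 at an unadjusted p under 0.05, 0 by DESeq2), with 0.08 for Metap2 and -0.01 for Nmt1 on the log2 scale (adjusted p = 0.689 and 0.968).

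The remaining lists hold ribosome quality control and the muscle partners of NAC. Of the genes that clear stalled chains 0 of 7 were called (1 at an unadjusted p under 0.05, 0 by DESeq2), with 0.07 for Tcf25 and -0.06 for Nemf (adjusted p = 0.751 and 0.775). Of Smyd1, Unc45b and the Hsp90 genes 0 of 4 were called (0 at an unadjusted p under 0.05, 0 by DESeq2), with -0.09 for Hsp90ab1 and -0.03 for Hsp90aa1 (adjusted p = 0.469 and 0.925). Smyd1 was at 0.22 and Unc45b at -0.17 (adjusted p = 0.164 and 0.26). Nacad, a gene related to Naca, was near the limit of detection at 3.21 ± 0.692 CPM in Tnnt2low cells and 2.11 ± 1.54 CPM in Tnnt2high cells (adjusted p = 0.62).

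**Figure D5:**
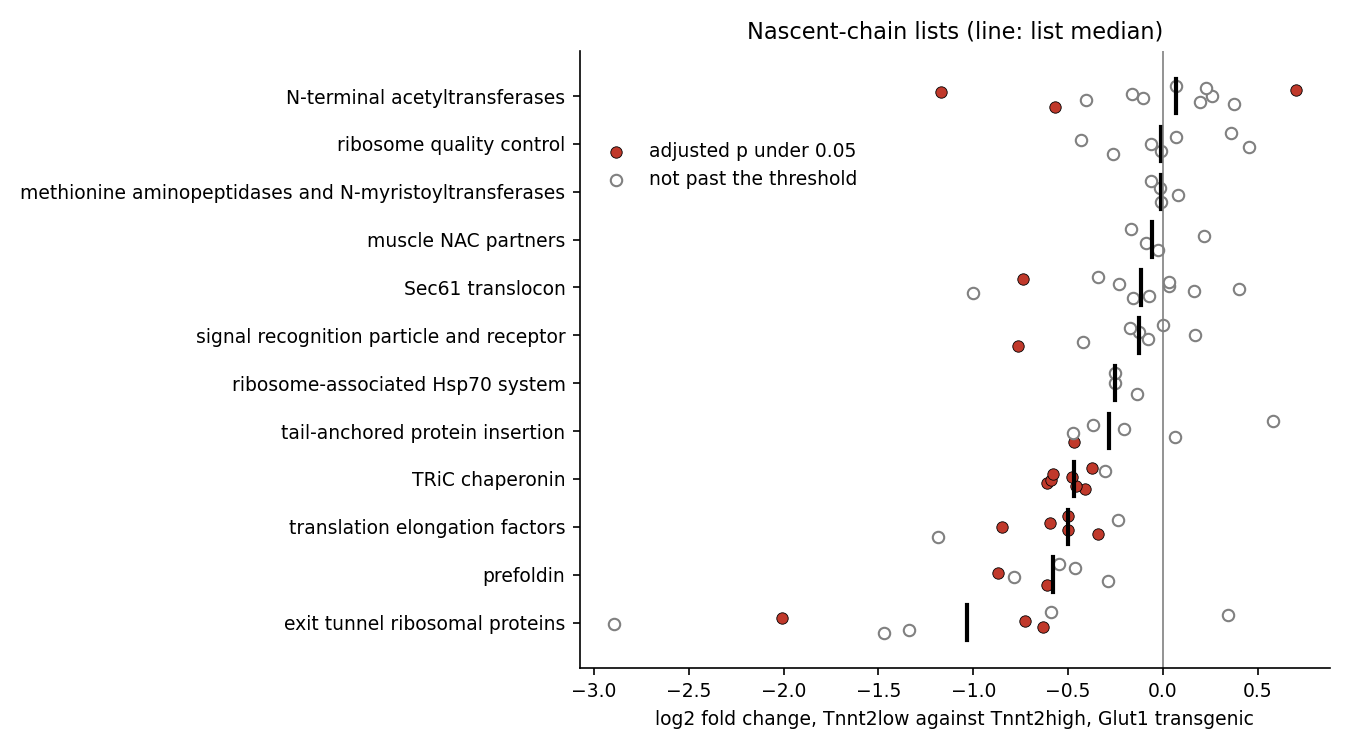
Log2 fold changes of the tested genes (x axis, Tnnt2low against Tnnt2high cells of Glut1 transgenic hearts) in 12 of the nascent-chain lists (y axis), with filled points for genes past the threshold, open points for the rest and a line at each list's median. The TRiC median lies at -0.47 with 7 of 8 subunits filled, and that of the N-terminal acetyltransferases at 0.07.

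The genes most alike to each member were sought among the 7961 genes that averaged 10 CPM or more, by Pearson's r of log2 CPM over the 12 libraries. This is a description over points that share their library and depth. For Btf3 they were Vps37a (r = 0.84), Rpsa (0.82), Pex5 (0.81), Cwf19l2 (0.81) and Slc25a5 (0.80), of which Rpsa and Slc25a5 share 25.9% and 33.8% of their windows with genes elsewhere. For Btf3l4 they were Adra1b (0.83), Ppil1 (0.83), Ift46 (0.81), Kdm1a (0.80) and Rpl19 (0.79), and without WT Tnnt2high replicate 2 these values were 0.63, 0.78, 0.71, 0.75 and 0.51. Naca was followed most closely, with Fam160a1 (0.98), Atp2b1 (0.97), Rragd (0.97), Fam120a (0.97) and Celsr1 (0.97). The longest transcripts of these 5 genes measured 4445 to 10879 bases, against a median of 3658 bases over the 7961 genes.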

How the data were processed

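Single-end reads of 50 bases from 12 libraries were checked with FastQC, trimmed at low-quality ends, mapped to mm10 with HISAT2 and counted with HTSeq over the union of exons of UCSC's annotation by the authors, who deposited raw counts per gene. The strand setting and tool versions were not given in the sources used here. Reads outside exons (38.6%), with several alignments (34.7%) or ambiguous (0.379%) name no gene and stayed out of library sizes and tests. Labels describe heart tissue, the methods sorted cells.

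Counts were fitted in R 4.3.3 with edgeR 4.0.16 (TMM, filterByExpr on 4 groups, quasi-likelihood test, 12 libraries in 1 fit, prior count of 2 for log2 CPM, Benjamini-Hochberg, threshold 0.05). The biological coefficient of variation was 0.314, and replicates differed by more than counting noise (chi-square per gene 13.4 to 26.5 over 14 pairs). Alternatives were RLE scaling, DESeq2 1.42.0 (the authors' tool), no filter, only the groups compared, a loess offset for length and GC content (span 0.3; longest transcript), each library left out and the heart as a block. Two-sided exact permutation tests served the read ratios. Scripts were tested on simulated data.

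The pairing comes from the labels, which name the same heart for both populations. Deviations of paired libraries correlated at 0.107 to 0.226 in the 4 Glut1 transgenic hearts.

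Transcripts and sequences came from GENCODE vM21, not the annotation of the counting, which matched 24060 genes (98.5%) by symbol, 684 through a synonym. The members, lists and tests were chosen with earlier results of these data known. Named were the members, up to 3 called genes of smallest p per list and direction (or the 2 of highest level), the 5 genes most alike to each member, Tnnt2 and Slc2a1. Xist, Ddx3y and the genes that share windows with the members were named after their values were seen. Smyd1 and Unc45b lay outside this rule, and their values were added after they were seen. The short Naca transcript and the hearts with Xist alone were alternatives chosen after seeing the data. Figures used Python 3.11.15 and matplotlib 3.10.9.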

Additional observations from a re-analysis of the deposited data

Results flagged for a closer look

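Btf3l4 in Glut1 transgenic Tnnt2low replicate 4 stood at 3.71 CPM, far below the other 3 libraries of its group (11.1 to 12.4 CPM), and the gap was 0.849 of the group's range. It was the 1 value that stood apart among 6 sets of 4 libraries examined. Chance alone gives such a value in about 1 in 20 sets, so it is more frequent over all 6 together.

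Between Tnnt2low and Tnnt2high cells Btf3 was down in 4 of 4 Glut1 transgenic hearts and up in 2 of 2 WT pairs, which may come from the same heart. The WT log2 fold change of 0.51 had a 95% interval of -0.26 to 1.28, which spans no change. Subtracting the WT log2 fold change from the Glut1 transgenic one gave -1.84. This difference contains the genotype comparison that picked the members and was not tested.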

How the results depend on the processing

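The tests of Btf3 and Naca in Glut1 transgenic hearts share libraries with the choice of the members, so their p-values are a description. Btf3 kept its direction between the populations of Glut1 transgenic hearts in all alternatives. It missed the threshold with the length and GC offset (-0.73, edgeR adjusted p = 0.114) and with the hearts in which Xist prevailed alone (-1.25, edgeR adjusted p = 0.145, chosen after seeing the data). Naca missed it with the offset (0.19), with offset and block (0.19) and with those hearts alone (0.56). The cause was not tested. Btf3l4 was at 0.053 with the offset and 0.14 with those hearts, against -0.11, and spanned -0.25 to 0.16 when single libraries were left out. Between genotypes in Tnnt2high cells, Btf3l4 spanned -2.14 to -0.24 and Naca gave -0.12 with the offset and -0.49 with the offset on its short form. When single libraries were left out, the Btf3 ratio to Naca spanned -2.16 to -1.69 and that of Btf3l4 -0.92 to -0.32. The offset, under which Btf3 was at -0.73 and Naca at 0.19, was not applied to the ratios. These ranges therefore do not cover it. With the hearts paired, the exact p of both ratios was 0.125, the smallest that 4 pairs can give.

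The genes called between the populations of Glut1 transgenic hearts numbered 258 with the offset, 600 with offset and replicate block, 0 with the Xist hearts alone (2 against 2 libraries) and 1237 to 2127 with single libraries left out. The nascent-chain genes called numbered 3, 4, 0 and 11 to 23 in the same order. The largest losses came without replicate 1 or 2 of either population (11 and 13 left without Tnnt2low replicates 1 and 2, 12 and 14 without Tnnt2high replicates 1 and 2). In WT hearts 3 genes were called by DESeq2, 6 without a filter, 5 with only the groups compared, 2 with the replicate block and 0 to 1 with single libraries left out. Between genotypes in Tnnt2low cells these were 6 by DESeq2, 10 without a filter, 0 with the Xist hearts and 0 to 1 with libraries left out, and in Tnnt2high cells 5, 13, 1 and 0 to 1, with 3 when only the groups compared were fitted. Beyond Rpl31 and Naa10, the block changed no call of a named gene.

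Some named genes of the lists changed sign. Among them Asna1 was called in the fit as reported (-0.47), and the others were not. With the offset they were Hsp90ab1 (0.073, and 0.074 with the replicate block), Hsp90aa1 (0.072 and 0.064), Tcf25 (-0.15 and -0.14) and Asna1 (0.061 and 0.067), and with single libraries left out Nmt1 spanned -0.097 to 0.070, Hsp90aa1 -0.11 to 0.094 and Tcf25 -0.014 to 0.11. With 2 WT libraries per population, the WT comparisons have little power, and 29 to 343 Btf3l4 reads per library limit the precision of that gene.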
